A study of Anas platyrhynchos with 16 samples.

Results

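The genes described here encode voltage-gated sodium channels, voltage-gated calcium channels and their auxiliary subunits, the pacemaker channels of the HCN family, and the canonical, melastatin and vanilloid TRP channels of the duck. They were taken by gene symbol from the deposited table: every symbol that starts with SCN and ends in a number and A or B, every CACNA, CACNB and CACNG symbol, every HCN symbol, and every TRPC, TRPM and TRPV symbol. This gave 40 of the 24263 genes in the table, made up of 2 sodium channel pore subunits, 3 sodium channel beta subunits, 7 calcium channel pore subunits, 3 CACNA2D, 3 CACNB and 5 CACNG genes, 2 HCN genes, 6 TRPC, 6 TRPM and 2 TRPV channels. The last of the 40 was TRPC4AP, which the symbol rule picks up although it encodes an adaptor of a ubiquitin ligase and not a channel. The material was hypothalamus and pituitary from Shanma ducks, a laying breed of Anas platyrhynchos, profiled by RNA sequencing at 113 days of age. At 110 days 15 ducks were moved into 3 cages with 16 h of light per day, while 15 stayed on the floor with access to water under natural light. Housing and lighting therefore differed together and cannot be told apart. The cage of each library was not given. Each combination of tissue and housing had 4 libraries, numbered 1 to 4. Nothing in the labels says whether a library was 1 bird, so each p-value measures only how these libraries vary, which could be technical.

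Voltage-gated sodium channels carry the upstroke of the action potential, and their beta subunits set gating and surface expression. Voltage-gated calcium channels turn depolarisation into calcium entry, which triggers transmitter release at nerve endings and hormone secretion in the endocrine cells of the pituitary. HCN channels open on hyperpolarisation and carry a pacemaker current, while TRP channels respond to receptors coupled to phospholipase C, to oxidative signals, or to temperature and chemicals.

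The libraries held between 38853215 and 67175356 counts each. All 5 neuronal markers found, all 3 oligodendrocyte markers and all 6 astrocyte and tanycyte markers were lower in pituitary than in hypothalamus in either housing, and 10 of 11 pituitary endocrine markers were higher and 1 lower. In pituitary against hypothalamus, smooth muscle and fibroblast markers were higher for 6 of 7 genes in floor-water ducks and 4 of 7 in caged ducks, with 1 lower in the latter. The choroid plexus markers moved both ways, 2 higher and 1 lower of 5 in floor-water ducks and 1 higher and 3 lower in caged ducks. Skeletal muscle markers were called higher for 1 of 5 genes in either housing, with 1 lower in caged ducks, and photoreceptor and pineal markers for 0 and 1 of 4. None of 5 erythrocyte markers was found by symbol. Libraries held unequal levels of other-tissue transcripts. Transcripts restricted to the other tissue, measured without the channel genes, stood at 19.1% of their level in that tissue in caged hypothalamus library 4 and at 0.567% to 4.49% in the other caged hypothalamus libraries, against 0.154% to 1.46% in floor-water hypothalamus. In pituitary they stood at 5.48% in caged library 2 and at 5.51% and 5.69% in floor-water libraries 2 and 4, against 0.3% to 0.982% in the other pituitary libraries. Caged hypothalamus library 2 also stood apart through the choroid plexus transcript TTR, at 20520 FPKM against 8.61 to 662 FPKM in the other hypothalamic libraries. CLIC6 was highest there too, at 2.36 FPKM against 0.332 to 0.629 FPKM. KL, OTX2 and AQP1, at 4.07, 7.24 and 4.83 FPKM, were each exceeded by another hypothalamic library. That library's share of pituitary-restricted transcripts was 0.567%, below that of caged hypothalamus libraries 1 and 3. Results that changed without these 5 libraries, caged hypothalamus 2 and 4, caged pituitary 2 and floor-water pituitary 2 and 4, are given both ways.

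Per unit of transcript length, the beta subunit SCN2B, which is covalently bound to the sodium channel pore, was the most abundant of the 40 genes in hypothalamus, at 235 ± 46.96 FPKM (fragments scaled to transcript length and library size; mean ± SD, n = 4, as for all levels below) in caged and 279.7 ± 35.5 FPKM in floor-water ducks. Next came SCN3B, a non-covalently bound beta subunit, at 86.05 ± 16.96 and 76.3 ± 10.8 FPKM, and TRPM2, a calcium-permeable channel opened by ADP-ribose during oxidative stress, at 59.6 ± 7.91 and 78.5 ± 8.98 FPKM. SCN3B and TRPM2 overlapped in their hypothalamic libraries. In pituitary the order changed: SCN3B led at 48.9 ± 11.7 FPKM in caged ducks and 45.4 ± 10.4 FPKM in floor-water ducks, followed in floor-water ducks by SCN2B at 26.9 ± 9.36 FPKM and the R-type calcium channel pore CACNA1E at 20.1 ± 3.79 FPKM. In caged pituitary CACNA1E at 20.9 ± 4.89 FPKM stood beside SCN2B at 16.6 ± 7.85 FPKM, within the spread of either. At the other end, CACNG1, the gamma subunit of the skeletal muscle calcium channel, had 0 counts in 15 libraries, which allows up to 0.0447 to 0.0727 CPM (counts scaled to library size) in each, and 29 counts in floor-water pituitary library 1.

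**Figure D1:**
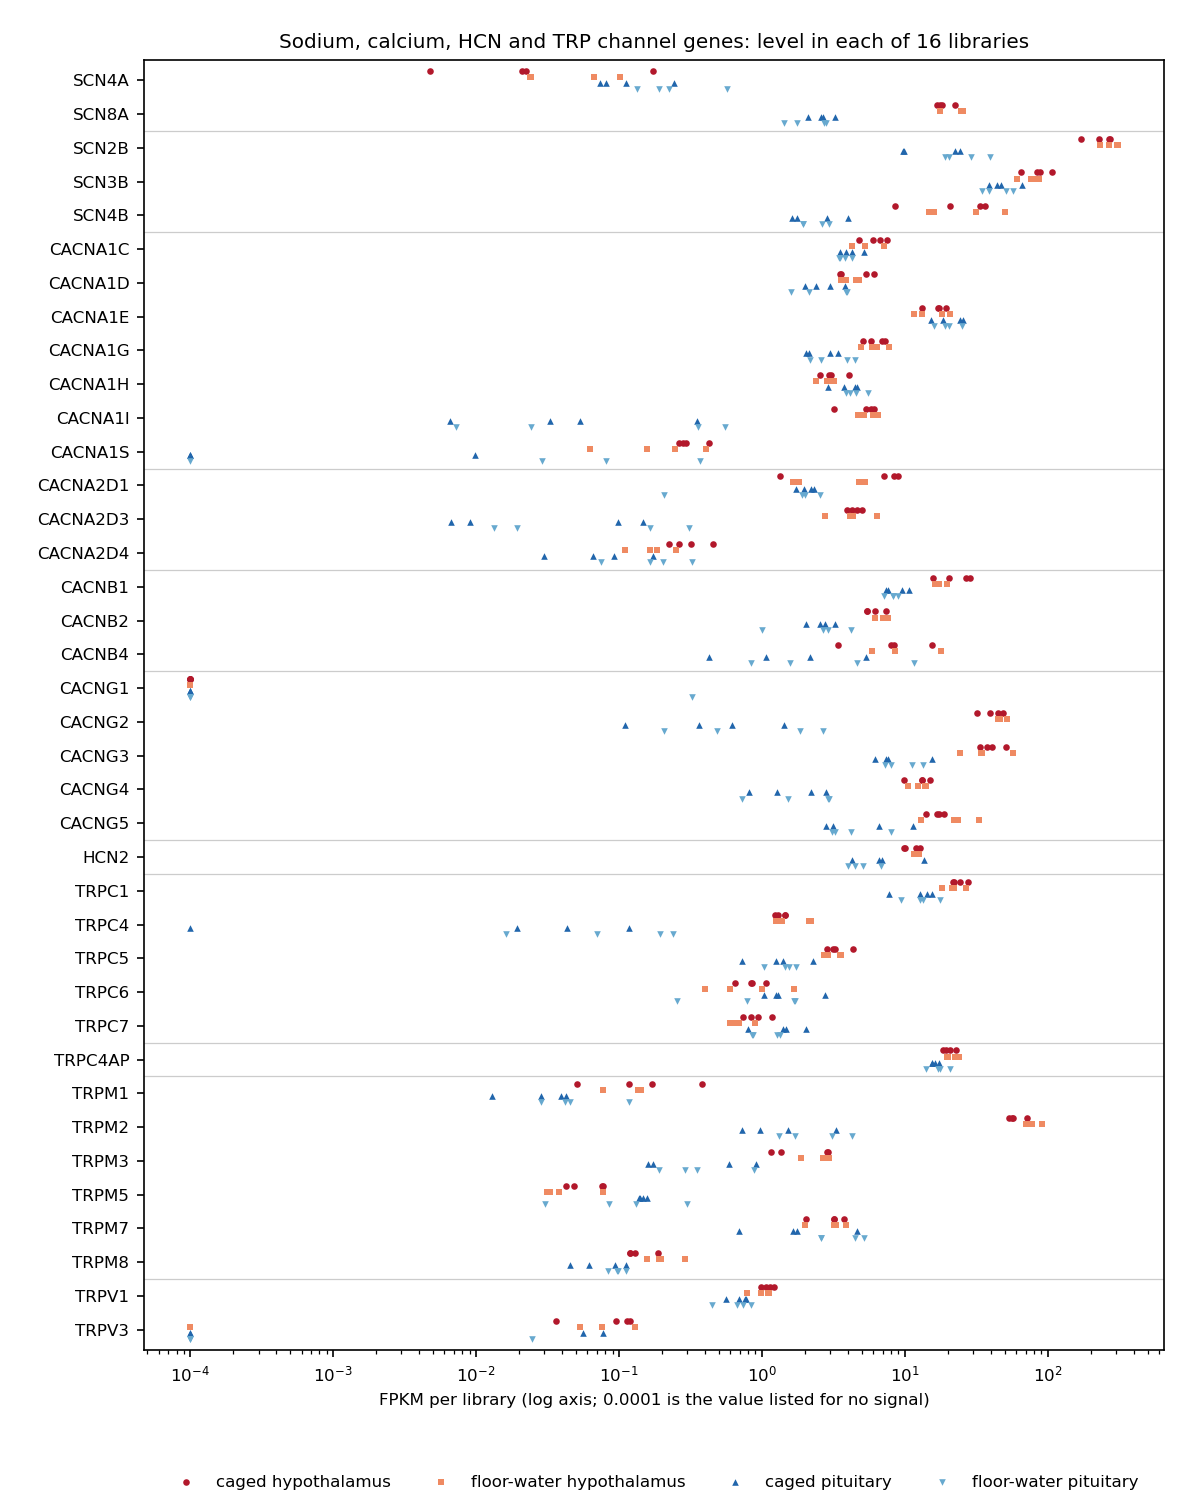
FPKM of 38 of the channel genes in the 4 groups, on a log scale, with 1 point per library and genes ordered by family; 0.0001 is the value listed for no signal. SCN2B, SCN3B and TRPM2 lead in hypothalamus, and SCN3B, SCN2B and CACNA1E lead in pituitary.

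Most of these genes differed between pituitary and hypothalamus, as did most of all genes tested, but the members' calls were mainly in the lower direction. In floor-water ducks 21 of 38 members tested were lower and 3 were higher in pituitary, beside 27.8% lower and 28.5% higher among all 15878 genes tested. The median member had a log2 fold change of -0.89 and the median of all genes 0.071. In caged ducks 22 of 39 were lower and 5 higher, beside 26.8% lower and 27.3% higher among 15854 genes. The members' median was -1.03 and that of all genes 0.065. Those calls used edgeR's quasi-likelihood test with an adjusted p under 0.05 over all genes tested. Lower calls in both housings were made for 19 members, higher calls in both for 2, and 8 were called in neither. A further 9 were called in 1 housing only, which does not show that the housings differed, since no member passed the test of that difference given below. In what follows a pair of levels gives caged ducks first, and a pair of log2 fold changes, each with its SE, gives floor-water ducks first. Of the lower calls 19 of 21 in floor-water and 16 of 22 in caged ducks held under every alternative setting that gave an adjusted p, other than a test against a log2 fold change of 1, and of the higher calls 2 of 3 and 0 of 5. DESeq2 gave none for CACNA1I in caged ducks. In bulk tissue, fewer cells that use a gene and less RNA per cell cannot be told apart. The neuronal markers fell with the channel genes, from a summed 1682 to 2451 FPKM in hypothalamus to 138 to 294 FPKM in pituitary. The part of this in the channel results was not tested.

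**Figure D2:**
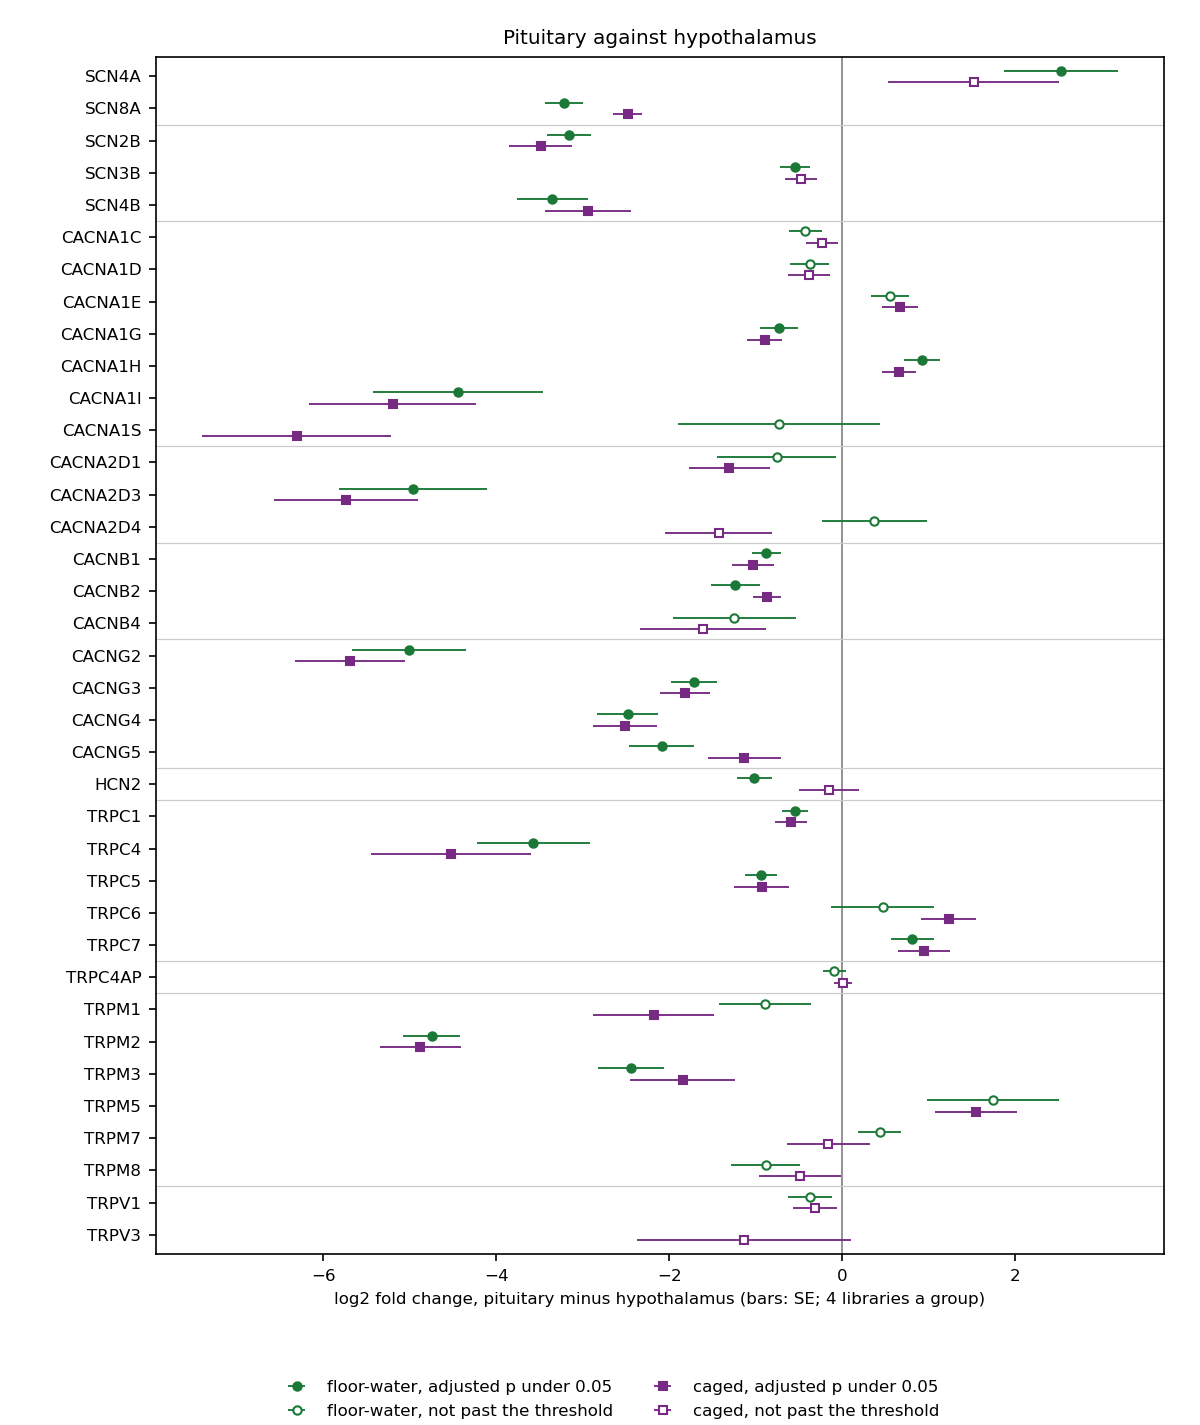
Log2 fold change of pituitary against hypothalamus for the tested channel genes drawn, in floor-water and in caged ducks; bars are standard errors of 4 libraries per group and filled points passed an adjusted p of 0.05. CACNA2D3 and CACNG2 lie at -5.74 and -5.69 in caged ducks, and CACNA1H and TRPC7 were called higher in either housing.

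Among the sodium channels, SCN8A, the pore subunit concentrated at the axon initial segment, had 210.1, 160.2, 163 and 168 CPM in caged hypothalamus libraries 1 to 4 and 233, 173, 239.8 and 243 CPM in floor-water hypothalamus. Pituitary libraries held 38.98, 30.1, 28.9 and 25.6 CPM in caged ducks and 18.2, 26.6, 19.2 and 31.4 CPM in floor-water ducks. No pituitary library reached the lowest hypothalamic one. The log2 difference was -3.22 ± 0.22 (SE; edgeR adjusted p = 7.93e-06) in floor-water and -2.48 ± 0.17 (adjusted p = 2.28e-05) in caged ducks. SCN2B went from 704, 706, 565 and 447 CPM in hypothalamus of caged ducks and 702, 838, 804 and 614 CPM in that of floor-water ducks to 31.8, 75.7, 30.7 and 75.1 CPM in pituitary of caged ducks and 54.4, 105, 108 and 62.7 CPM in that of floor-water ducks. The tissues were again separate, with log2 fold changes of -3.16 ± 0.26 (edgeR adjusted p = 1.46e-05) and -3.48 ± 0.36 (adjusted p = 0.000103). SCN4B, a beta subunit known for its part in resurgent sodium current, was low in every pituitary library at 5.20 to 13.7 CPM, against 54.5, 90.2, 21.7 and 96.1 CPM in hypothalamus of caged ducks and 39.1, 44.5, 84.4 and 135 CPM in that of floor-water ducks, where it ranged widely within each group. Its log2 fold changes were -3.35 ± 0.41 and -2.94 ± 0.50 (edgeR adjusted p = 0.000128 and 0.0012).

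SCN3B differed far less between the tissues. It had 219 to 359 CPM in the hypothalamic libraries and 151 to 278 CPM in the pituitary ones, which overlap. The log2 fold change of -0.54 ± 0.17 was called in floor-water ducks (edgeR adjusted p = 0.0237) while -0.47 ± 0.18 in caged ducks was not (adjusted p = 0.0553). The floor-water call was lost without hypothalamus library 1 or 2 or pituitary library 1 or 3. A caged call was gained without hypothalamus library 4 or pituitary library 2 (edgeR adjusted p = 0.0264 and 0.0119). DESeq2, median ratio scaling, limma with either pseudocount and all libraries in 1 fit also gave a caged call. So did the library number as a replicate block, which ended the floor-water call. Among the sodium channel beta subunits SCN2B made up 70.1 ± 4.35% of the summed FPKM in hypothalamus (n = 8) and 29.8 ± 10.4% in pituitary, and SCN3B 22.4 ± 4.09% and 66.6 ± 10.3%. The summed level of the beta subunits was 346 ± 52.6 FPKM in caged hypothalamus, 384 ± 34.3 FPKM in floor-water hypothalamus and 68.1 ± 15.99 and 74.7 ± 14.3 FPKM in pituitary.

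SCN4A, the pore subunit of the skeletal muscle sodium channel, went the other way in floor-water ducks, where hypothalamus held 0.187, 0.511, 0.184 and 0.754 CPM and pituitary 4.56, 1.44, 2.35 and 1.17 CPM. The groups did not overlap. The log2 fold change was 2.53 ± 0.66 (edgeR adjusted p = 0.00929). Without floor-water pituitary library 1 it was 2.01 (adjusted p = 0.033). In caged ducks 0.0364, 1.28, 0.164 and 0.162 CPM in hypothalamus and 0.763, 0.656, 0.968 and 2.28 CPM in pituitary overlapped, with 1.52 ± 0.99 (adjusted p = 0.22). Without caged hypothalamus library 2, the highest there, it was 3.27 (adjusted p = 0.0139). Floor-water pituitary library 1, the highest for SCN4A, was also the only library with CACNG1 and the richest in skeletal muscle markers, at a summed 194 FPKM against 9.43 FPKM in the lowest floor-water pituitary library. The troponin gene TNNT3 stood at 22.5 FPKM there and at no more than 0.322 FPKM in the other 3. CACNA1S, the calcium channel pore of skeletal muscle, had 2.20, 0.469, 0.241 and 0 CPM in the same group, also highest in library 1, and 0.0763, 0, 0 and 0 CPM in caged pituitary, where all 4 libraries together held 4 counts. It was called lower in caged ducks only, against 1.44 to 2.33 CPM in caged hypothalamus. The part of muscle tissue in these levels was not tested.

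The calcium channel pore subunits were called in both directions. CACNA1I, a low-voltage-activated T-type pore, had 51.8, 50.6, 43.7 and 27.6 CPM in hypothalamus of caged ducks and 51.4, 58.2, 41.02 and 45.3 CPM in that of floor-water ducks. In pituitary it had 0.0763, 3.63, 0.549 and 0.388 CPM in caged ducks and 0.0747, 4.94, 0.321 and 3.63 CPM in floor-water ducks, so that no pituitary library exceeded 4.94 CPM. The log2 fold changes were -4.44 ± 0.98 (edgeR adjusted p = 0.00388) and -5.20 ± 0.97 (adjusted p = 0.0019). CACNA1G, another T-type pore, fell by a smaller amount, from 53.1 to 86.3 CPM to 27.02 to 50.1 CPM, with log2 fold changes of -0.73 ± 0.22 and -0.90 ± 0.20 (adjusted p = 0.0174 and 0.00535). Without floor-water pituitary library 3 the former was -0.63 (adjusted p = 0.0537).

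CACNA1H, the last of the T-type pores, rose. It had 28.3, 22.1, 26.6 and 25.4 CPM in floor-water hypothalamus and 44.8, 35.7, 70.3 and 43.8 CPM in floor-water pituitary, groups that did not overlap, with a log2 fold change of 0.93 ± 0.21 (edgeR adjusted p = 0.00434). In caged ducks the values were 27.1, 23, 24.97 and 36.3 CPM and 50.5, 49.5, 39.9 and 33.1 CPM, where hypothalamus library 4 exceeded pituitary library 4, with 0.66 ± 0.20 (adjusted p = 0.0192). This call was lost without hypothalamus library 2 or 3 or pituitary library 1 or 2, with adjusted p of 0.0559 to 0.0667. The T-type genes took different shares in the 2 tissues. Of their summed FPKM CACNA1I held 34.8 ± 6.57% in caged and 38.1 ± 2.28% in floor-water hypothalamus and 1.62 ± 2.24% and 2.70 ± 2.998% in pituitary. CACNA1H went from 22.3 ± 7.18% and 19.6 ± 3.62% to 58.9 ± 4.38% and 56.9 ± 13.0%. CACNA1G kept a like share, 42.9 ± 2.78% and 42.3 ± 3.66% against 39.5 ± 6.54% and 40.4 ± 10.2%. CACNA1H, like every member called higher in pituitary, was picked for description after its values were seen.

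Pore genes listed by locus number, such as those described as N-type and P/Q-type, enter none of the shares and sums given here. Among the 7 calcium channel pores with a symbol, CACNA1E had the highest FPKM in either tissue. It made up 38.9 ± 4.17% of their summed FPKM in hypothalamus (n = 8) and 58.5 ± 6.03% in pituitary. Its counts were 155, 179, 151 and 121 CPM in caged hypothalamus and 282, 167, 199 and 299.7 CPM in caged pituitary, which overlapped through 2 libraries, with a log2 fold change of 0.67 ± 0.21 (edgeR adjusted p = 0.0248). The call was lost without hypothalamus library 1, 3 or 4 or pituitary library 1 or 4 (adjusted p from 0.0554 to 0.0765). In floor-water ducks 166, 197, 106 and 122 CPM (hypothalamus) and 251, 192, 251 and 173 CPM (pituitary) gave 0.56 ± 0.22 and no call (adjusted p = 0.0546). Leaving out hypothalamus library 2 or pituitary library 4 gave one (adjusted p = 0.0205 and 0.0431). So did DESeq2 and all libraries in 1 fit. Limma with either pseudocount and the library number as a replicate block ended the caged call of CACNA1E. The L-type pores CACNA1C and CACNA1D were called in neither housing by the main edgeR test. Their log2 fold changes were -0.43 and -0.38 in floor-water and -0.23 and -0.38 in caged ducks, with overlapping libraries. In floor-water ducks edgeR called CACNA1C without hypothalamus library 2 (adjusted p = 0.029) and with the library number as a replicate block. Limma on log2(FPKM + 1) and on log2(FPKM + 0.1) called it in both housings. Summed over the pores with a symbol, the FPKM was 42.5 ± 4.999 in caged and 40.9 ± 6.01 in floor-water hypothalamus. In pituitary it was 34.6 ± 4.86 and 34.96 ± 4.75. FPKM were used as deposited, while CPM were adjusted by TMM factors of 0.76 to 1.07 in pituitary and 1.06 to 1.15 in hypothalamus. A difference between tissues can therefore be unlike on these scales.

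**Figure D3:**
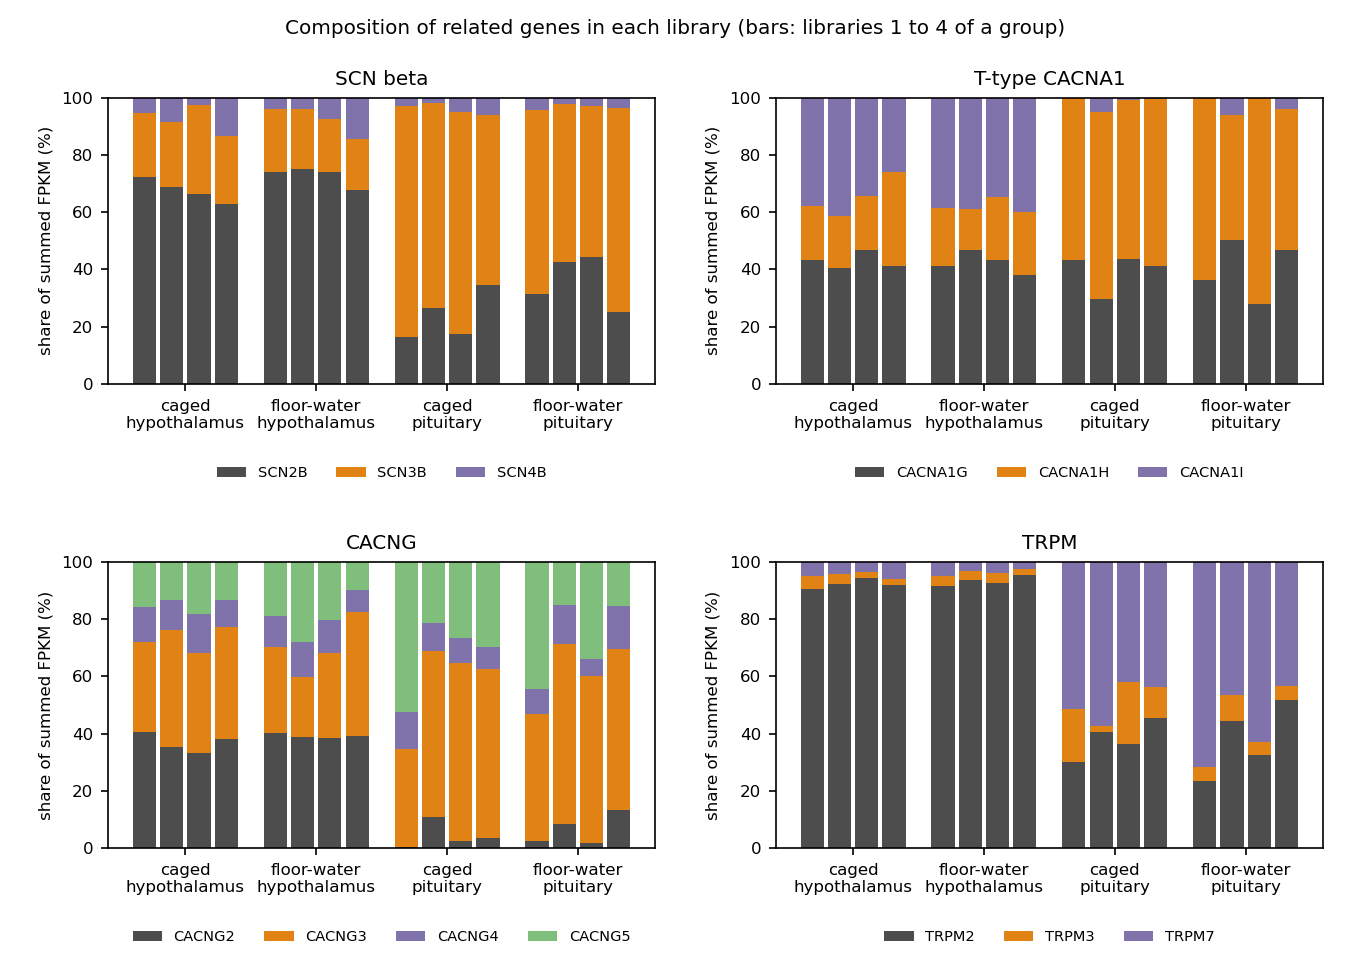
Share of the summed FPKM, in percent, held by each gene in 4 sets of related subunits (sodium channel beta subunits, T-type pores, CACNG2 to CACNG5, and TRPM2, TRPM3 and TRPM7), with 1 stacked bar for each of libraries 1 to 4 of a group. SCN2B, CACNA1I, CACNG2 and TRPM2 hold a larger mean share in hypothalamus than in pituitary, where SCN3B, CACNA1H, CACNG3 and TRPM7 lead on average.

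Of the auxiliary calcium channel subunits, CACNA2D3, an extracellular subunit that promotes channel trafficking to the membrane, showed a gap of the same order as CACNA1I. Hypothalamus held 36.2, 39.8, 31.8 and 30.7 CPM in caged ducks and 32.4, 22.7, 34.05 and 50.3 CPM in floor-water ducks, and pituitary 0.0763, 1.38, 0.952 and 0.0970 CPM (caged) and 0.168, 2.51, 0.161 and 1.56 CPM (floor-water). All 8 pituitary libraries were below all 8 hypothalamic ones, with log2 fold changes of -4.96 ± 0.85 (edgeR adjusted p = 0.000933) and -5.74 ± 0.83 (adjusted p = 0.000513). CACNA2D1, the subunit bound by gabapentin, differed less and was called in caged ducks only (-1.30 ± 0.47, adjusted p = 0.0408, against -0.76 ± 0.69, adjusted p = 0.374, in floor-water ducks). The caged call was lost when any single library but hypothalamus library 2 was left out, with adjusted p from 0.0604 to 0.101. CACNA2D4, best known from the mammalian retina, stayed under 1.6 CPM in every library and was called in neither housing by edgeR with all libraries. In caged ducks it was -1.43 there (adjusted p = 0.0797), while DESeq2 gave -1.50 (adjusted p = 0.0424) and limma called it with either pseudocount. Without caged pituitary library 4 edgeR gave -2.003 (adjusted p = 0.0251).

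The CACNB genes encode cytoplasmic subunits that chaperone the pore to the membrane. CACNB2 was lower in pituitary in both housings, at 13.8 to 41.6 against 51.4 to 73.2 CPM, with log2 fold changes of -1.23 ± 0.28 and -0.87 ± 0.16 (edgeR adjusted p = 0.00481 and 0.00162). The gene deposited as CACNB1, whose identifier the RefSeq gene table pairs with the symbol CACNB3, was lower too, at 9.29 to 14.6 against 17.1 to 31.3 CPM, with -0.88 ± 0.17 and -1.03 ± 0.24 (adjusted p = 0.00202 and 0.00657). Neither gene's tissues overlapped. CACNB4 was called in neither housing by edgeR, though in caged ducks DESeq2 (-1.68, adjusted p = 0.0199) and limma on log2(FPKM + 1) (-1.68, adjusted p = 0.0204) did call it, and limma on log2(FPKM + 0.1) called it in both housings. Among members with a mean of at least 1 FPKM it was the most uneven within pituitary, from 2.42 to 31.96 CPM among caged and 4.12 to 60.2 CPM among floor-water libraries, and library 1 was highest in each. Without that library the log2 fold change was -2.13 (adjusted p = 0.0222) in floor-water and -2.54 (adjusted p = 0.0141) in caged ducks, against -1.24 and -1.61 with it.

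The CACNG genes other than CACNG1 belong to the proteins that escort AMPA-type glutamate receptors to the synapse, and all 4 were lower in pituitary in both housings. CACNG2, or stargazin, had 47.4, 43.9, 29.7 and 38.7 CPM in hypothalamus of caged ducks and 45.5, 46.2, 44.3 and 51.3 CPM in that of floor-water ducks against 0.153, 1.68, 0.726 and 0.461 CPM (caged) and 0.523, 1.86, 0.301 and 3.08 CPM (floor-water) in pituitary. No pituitary library exceeded 3.08 CPM. The log2 fold changes were -5.01 ± 0.66 (edgeR adjusted p = 0.000188) and -5.69 ± 0.63 (adjusted p = 0.000141). CACNG4 followed at 57.3, 51.4, 48.4 and 37.7 CPM (caged) and 47.5, 56.8, 53.3 and 40.96 CPM (floor-water) against 13.6, 5.87, 10.01 and 4.001 CPM (caged) and 6.46, 11.5, 4.01 and 13.6 CPM (floor-water), also without overlap, at -2.48 ± 0.35 and -2.51 ± 0.37 (adjusted p = 0.000309 and 0.000553). CACNG3 kept more of its level, 16.3 to 37.6 against 51.8 to 117 CPM, at -1.72 ± 0.26 and -1.81 ± 0.29 (adjusted p = 0.00048 and 0.000857). Of the summed FPKM of the CACNG genes with a symbol it held 33.6 ± 7.25% in hypothalamus and 54.3 ± 10.1% in pituitary. CACNG2 went from 38.0 ± 2.50% to 5.44 ± 4.79%. A further gene described as a gamma-3 subunit, listed by locus number, was left out of this sum. CACNG5 had log2 fold changes of -2.08 ± 0.38 in floor-water ducks and -1.13 ± 0.42 in caged ducks (adjusted p = 0.0012 and 0.0468), where caged pituitary library 1, at 38.4 CPM, lay within the hypothalamic range. The caged call was lost on leaving out any single library except pituitary library 1.

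Of the pacemaker channels HCN2, which responds strongly to cyclic AMP, was detected in every library and was lower in floor-water pituitary (13.4, 8.39, 13.2 and 8.58 CPM against 21.4, 23.5, 20.9 and 22.2 CPM, no overlap, log2 -1.01 ± 0.20, adjusted p = 0.0022). In caged ducks it was 15.7, 9.19, 14.2 and 31.5 CPM against 18.01, 23.04, 17.1 and 21.7 CPM, with library 4 of pituitary above every hypothalamic one, and no call was made (-0.15 ± 0.34, adjusted p = 0.728). Without that library the log2 fold change was -0.62 (adjusted p = 0.0431).

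The canonical TRP channels, which open downstream of phospholipase C, moved in both directions. TRPC4 had 4.77, 5.42, 5.09 and 4.59 CPM (caged) and 8.15, 5.29, 4.64 and 7.91 CPM in floor-water hypothalamus and 0.210, 0.536, 0 and 0.0970 CPM (caged) and 0.803, 0.909, 0.381 and 0.0752 CPM (floor-water) in pituitary. No pituitary library reached 1 CPM. The log2 fold changes were -3.57 ± 0.65 (edgeR adjusted p = 0.00128) and -4.52 ± 0.92 (adjusted p = 0.00308). Its close relative TRPC5, at -0.94 and -0.93, fell less, as did TRPC1 at -0.54 and -0.59, both called in both housings. Leaving out 1 library ended the caged call of TRPC1 (hypothalamus 1 or 3) and of TRPC5 (hypothalamus 1 to 3, pituitary 1 or 2). TRPC1, a subunit that assembles with other TRPC proteins, led the family by FPKM and held a like share of it, 67.5 ± 3.17% in hypothalamus and 68.5 ± 3.43% in pituitary (n = 8 each).

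TRPC7 and TRPC6, which are opened directly by diacylglycerol, were the members of the family called higher. TRPC7 had 2.97, 2.87, 2.57 and 3.85 CPM in floor-water hypothalamus and 5.996, 5.86, 5.30 and 4.31 CPM in floor-water pituitary, with no overlap and a log2 fold change of 0.81 ± 0.25 (edgeR adjusted p = 0.0199). In caged ducks 3.58, 3.16, 3.83 and 5.04 CPM (hypothalamus) and 7.51, 10.4, 7.41 and 4.41 CPM (pituitary) gave 0.95 ± 0.30 (adjusted p = 0.025), with pituitary library 4 below hypothalamus library 4. Leaving out 1 library ended the TRPC7 call for 3 of the floor-water libraries (hypothalamus 3, pituitary 1 and 2) and for 6 of the caged ones (libraries 1 to 3 of either tissue), with adjusted p up to 0.0599 and 0.084. TRPC6 had 5.40, 5.37, 6.48 and 4.13 CPM in caged hypothalamus and 10.5, 20.99, 7.79 and 10.3 CPM in caged pituitary, higher in every library, with 1.23 ± 0.32 (adjusted p = 0.0105) and, without hypothalamus libraries 2 and 4 and pituitary library 2, 0.63 (adjusted p = 0.148). It had 2.57 to 10.8 and 1.79 to 12.9 CPM in floor-water ducks, where no call was made (0.47 ± 0.60, adjusted p = 0.53). TRPC4AP stayed level on this scale, at 97.7 to 126 CPM in hypothalamus and 93.02 to 129 CPM in pituitary, with log2 fold changes of -0.090 ± 0.13 and 0.010 ± 0.11. On log2(FPKM + 1) with limma it was -0.31 in caged ducks (adjusted p = 0.03), against a median shift of -0.199 for all genes on that scale.

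TRPM2 led the TRPM genes with a symbol in hypothalamus. It had 314, 399, 285 and 313 CPM in hypothalamus of caged ducks and 391, 528, 416 and 436 CPM in that of floor-water ducks against 6.81, 21.99, 10.04 and 5.17 CPM in pituitary of caged ducks and 10.4, 24.4, 10.6 and 20.5 CPM in that of floor-water ducks. Every hypothalamic library was more than 10-fold above every pituitary one. The log2 fold changes were -4.75 ± 0.33 (edgeR adjusted p = 8.23e-06) and -4.88 ± 0.46 (adjusted p = 7.41e-05). Of the summed FPKM of these genes TRPM2 made up 92.2 ± 1.70% in hypothalamus (n = 8) and 35.9 ± 8.74% in pituitary. There TRPM7, a magnesium-permeable channel fused to a kinase, held 49.4 ± 10.7%. TRPM genes listed by locus number, such as those described as TRPM6, were left out. TRPM7 itself was called in neither housing (0.44 ± 0.25 and -0.16 ± 0.48, adjusted p = 0.162 and 0.795). The sum of the TRPM genes with a symbol went from 65.1 ± 8.91 and 84.5 ± 8.999 FPKM in hypothalamus to 4.53 ± 2.79 and 7.02 ± 2.33 FPKM in pituitary.

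The remaining TRPM and TRPV genes were low. TRPM3, a heat- and steroid-activated channel, was lower in pituitary in both housings (-2.44 ± 0.38 and -1.84 ± 0.60, edgeR adjusted p = 0.000531 and 0.0289), from 12 to 33.6 CPM to 2.09 to 11.8 CPM. In caged ducks leaving out hypothalamus library 1 or 2 or pituitary library 4 ended the call (adjusted p up to 0.0736). TRPM5, the calcium-activated channel of taste cells, was under 1.5 CPM throughout and was called higher in caged pituitary, at 0.801, 0.777, 0.791 and 0.946 CPM against 0.346, 0.207, 0.223 and 0.371 CPM (1.55 ± 0.48, adjusted p = 0.0219), a call that ended on leaving out any of 5 libraries (hypothalamus 2 and 3, pituitary 1 to 3). In floor-water ducks TRPM5 had a log2 fold change of 1.75 without a call, and the libraries overlapped. All libraries in 1 fit gave a floor-water call, as did leaving out pituitary library 2. TRPM1, known from retinal bipolar cells, was called lower in caged ducks only (-2.18 ± 0.70, adjusted p = 0.0261) at levels up to 3.40 CPM. Without hypothalamus library 2, the highest, it was -1.49 (adjusted p = 0.108), and the call also ended without hypothalamus library 1 or pituitary library 1 or 2. TRPM8, the cold and menthol receptor, and TRPV1, the heat-gated channel that capsaicin opens in mammals, were called in neither housing by edgeR. Limma with either pseudocount called TRPM8 in floor-water ducks and TRPV1 in caged ducks. TRPV1 had 2.97 to 4.37 CPM in hypothalamus and 2.33 to 3.54 CPM in pituitary. TRPV3 never exceeded 0.7 CPM.

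The small pituitary levels of some hypothalamic channels, picked after their values were seen, were not spread evenly over libraries. For CACNA1I, CACNA2D3, CACNG2 and TRPM2 the highest caged pituitary library was library 2, and the 2 highest floor-water pituitary libraries were libraries 2 and 4, the 3 pituitary libraries with 5.48% to 5.69% of hypothalamus-restricted transcripts. CACNA1I, for example, stood at 3.63, 4.94 and 3.63 CPM in those 3 and at 0.0747 to 0.549 CPM in the other 5. Without those libraries and caged hypothalamus libraries 2 and 4, the log2 fold change of CACNA1I was -7.99 in floor-water and -7.18 in caged ducks. For CACNA2D3 it was -7.74 and -6.49, for CACNG2 -6.85 and -6.46, and for TRPM2 -5.43 and -5.40. Each of these was still called, and each was larger in size than with all libraries. The larger size follows in large part from picking genes that were highest in the pituitary libraries left out, and is no separate result. SCN8A was also higher in floor-water pituitary libraries 2 and 4, at 26.6 and 31.4 CPM against 18.2 and 19.2 CPM, but its highest pituitary library was caged library 1, at 39.0 CPM with 0.471% of such transcripts. Without the same libraries its log2 fold change was -3.60 and -2.63. Other members followed these libraries in part. TRPC4 and SCN2B were highest in library 2 of caged pituitary. In floor-water pituitary TRPC4 was lowest in library 4, at 0.0752 CPM against 0.803 CPM in library 1, and SCN2B was highest in library 3, at 108 CPM. CACNG4 was highest in libraries 2 and 4 of floor-water pituitary, but in caged pituitary library 1 had 13.6 CPM and library 2 had 5.87 CPM. The part of hypothalamic transcripts in the pituitary levels was not tested.

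Other calls changed when those 5 libraries were left out. That left 2 hypothalamic and 3 pituitary libraries of caged ducks and 4 and 2 of floor-water ducks. Among all genes the caged calls fell from 4323 higher and 4248 lower to 2908 and 3667. The number of libraries and their content changed together here and cannot be told apart. Of the members' calls, 8 caged calls and 1 floor-water call were lost in edgeR. Of the caged calls in the higher direction, CACNA1H was 0.61 (adjusted p = 0.0888), TRPC7 0.75 (adjusted p = 0.176) and TRPM5 1.51 (adjusted p = 0.156), beside TRPC6 as given above. In the lower direction CACNG5 was -1.06 (adjusted p = 0.136), TRPC5 -1.09 (adjusted p = 0.109), TRPM1 -1.48 (adjusted p = 0.245) and TRPM3 -1.59 (adjusted p = 0.118). The floor-water call of TRPC7 was lost at 0.85 (adjusted p = 0.0567). All of these kept their direction. Calls were gained for SCN3B at -0.83 (adjusted p = 0.0114) and SCN4A at 3.63 (adjusted p = 0.0375) in caged ducks and for CACNA1E at 0.73 (adjusted p = 0.0451) in floor-water ducks.

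**Figure D4:**
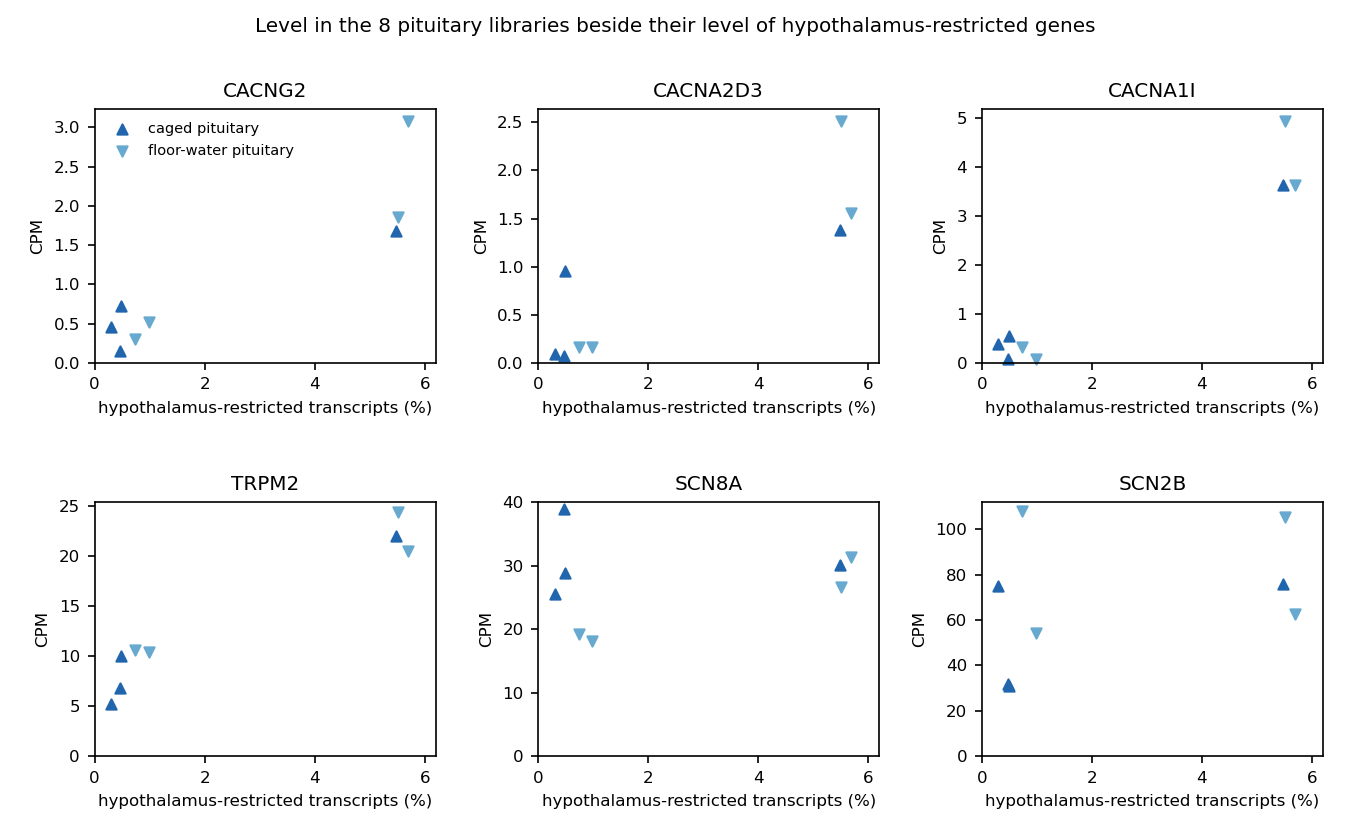
CPM of 6 channel genes in the 8 pituitary libraries against the level of hypothalamus-restricted transcripts there, in percent of their hypothalamic level; the 6 were chosen after their values were seen. CACNA1I, CACNA2D3, CACNG2 and TRPM2 are highest in libraries with 5.48% to 5.69%, while SCN8A and SCN2B also hold 18.2 CPM or more in libraries under 1%.

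Caged and floor-water ducks were compared within each tissue to ask whether housing moved these genes. In hypothalamus none of 39 members tested passed an adjusted p of 0.05 in edgeR, as none of all 15736 genes did (0.0%). At an unadjusted p under 0.05, 0 members were higher and 4 lower in caged ducks, beside 5.65% higher and 3.65% lower among all genes. DESeq2, which called 1.54% of all genes, called no member. The libraries of 1 member did not overlap between the housings, beside 5.63% of all genes. The members' median log2 fold change was -0.037 and that of all genes 0.004.

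TRPM2 and SCN8A were among these 4. TRPM2, with the library values given above, lay at 285 to 399 CPM in caged ducks and 391 to 528 CPM in floor-water hypothalamus, overlapping through caged library 2 (-0.45 ± 0.14, edgeR adjusted p = 0.401). In the authors' deposited table TRPM2 had a fold of 0.759 (p = 0.0219, q = 0.518), the lone member there with p under 0.05, and no member was marked as changed in either tissue. SCN8A overlapped through caged library 1 and floor-water library 2, 210.1 CPM in caged ducks and 173 CPM in floor-water ducks (-0.35 ± 0.14, edgeR adjusted p = 0.49).

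Markers of other cell types also differed in level. At an unadjusted p under 0.05, 7 of 11 pituitary endocrine, 4 of 7 smooth muscle and fibroblast and 2 of 5 choroid plexus markers were higher in caged hypothalamus and 1 of 5 neuronal markers, SNAP25, was lower, with 0 called. The summed neuronal markers ran from 1682 to 2451 FPKM in caged and 2410 to 2449 FPKM in floor-water hypothalamus, and the smooth muscle and fibroblast markers from 33.0 to 71.7 FPKM and 24.6 to 33.0 FPKM. With the share of other-tissue transcripts as a covariate the log2 fold change of TRPM2 was -0.17 and that of SCN8A -0.45. Without caged libraries 2 and 4 the values were -0.57 and -0.26. The part of other cell types in these values was not tested. CACNB2, at a mean of at least 1 FPKM, completed the 5 smallest p-values on the lower side, at -0.26 ± 0.12. On the higher side the smallest p-values among members with a mean of at least 1 FPKM belonged to CACNB1 at 0.33 ± 0.20, CACNA2D1 at 0.87 ± 0.57, SCN3B at 0.12 ± 0.16, CACNA1H at 0.11 ± 0.15 and TRPV1 at 0.10 ± 0.20. CACNA2D1 was uneven within each housing, with 76.6, 12.3, 77.6 and 65.99 CPM in hypothalamus of caged ducks and 16.8, 45.7, 48.3 and 15.3 CPM in that of floor-water ducks. Of all genes with a mean of at least 1 FPKM in the group, 2.60% spanned as widely in caged and 5.57% in floor-water hypothalamus.

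In pituitary none of 37 members tested was called by edgeR (0.0% of all 15582 genes) and 0 members were higher and 0 lower at an unadjusted p under 0.05, beside 1.71% and 2.59% of all genes. DESeq2 called 0.244% of all genes and no member, and no member's libraries were separate, beside 2.68% of all genes. The members' median was -0.041 and that of all genes -0.007. HCN2 had the smallest p, with 15.7, 9.19, 14.2 and 31.5 CPM in pituitary of caged ducks and 13.4, 8.39, 13.2 and 8.58 CPM in that of floor-water ducks. Its log2 fold change of 0.69 ± 0.36 (edgeR adjusted p = 0.9996) was 0.26 without caged library 4. SCN8A followed at 0.37 ± 0.23, then TRPC7 at 0.47 ± 0.29, CACNA1C at 0.22 ± 0.17 and TRPC6 at 0.59 ± 0.53 on the higher side. On the lower side stood SCN2B at -0.63 ± 0.36, TRPM7 at -0.68 ± 0.47, TRPM2 at -0.59 ± 0.47, CACNG2 at -0.94 ± 0.87 and CACNB4 at -0.93 ± 0.87. Of those, CACNG2 and TRPM2 are genes with most of their pituitary counts in the libraries rich in hypothalamic transcripts, 1 in the caged and 2 in the floor-water group. Without the libraries with most transcripts of another tissue CACNG2 was 0.13 and TRPM2 -0.50, and with the other-tissue share as a covariate they were 0.32 and -0.056. TRPM7 was -1.45 and -0.55 in the same order (edgeR adjusted p = 0.9999 and 0.948). The part of hypothalamic transcripts in these housing values was not tested. Skeletal muscle markers (3 of 5) and smooth muscle and fibroblast markers (3 of 7) were lower in caged pituitary at an unadjusted p under 0.05, the latter at a summed 65.9 to 152 FPKM against 70.8 to 508 FPKM. Their part in the channel values was not tested.

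**Figure D5:**
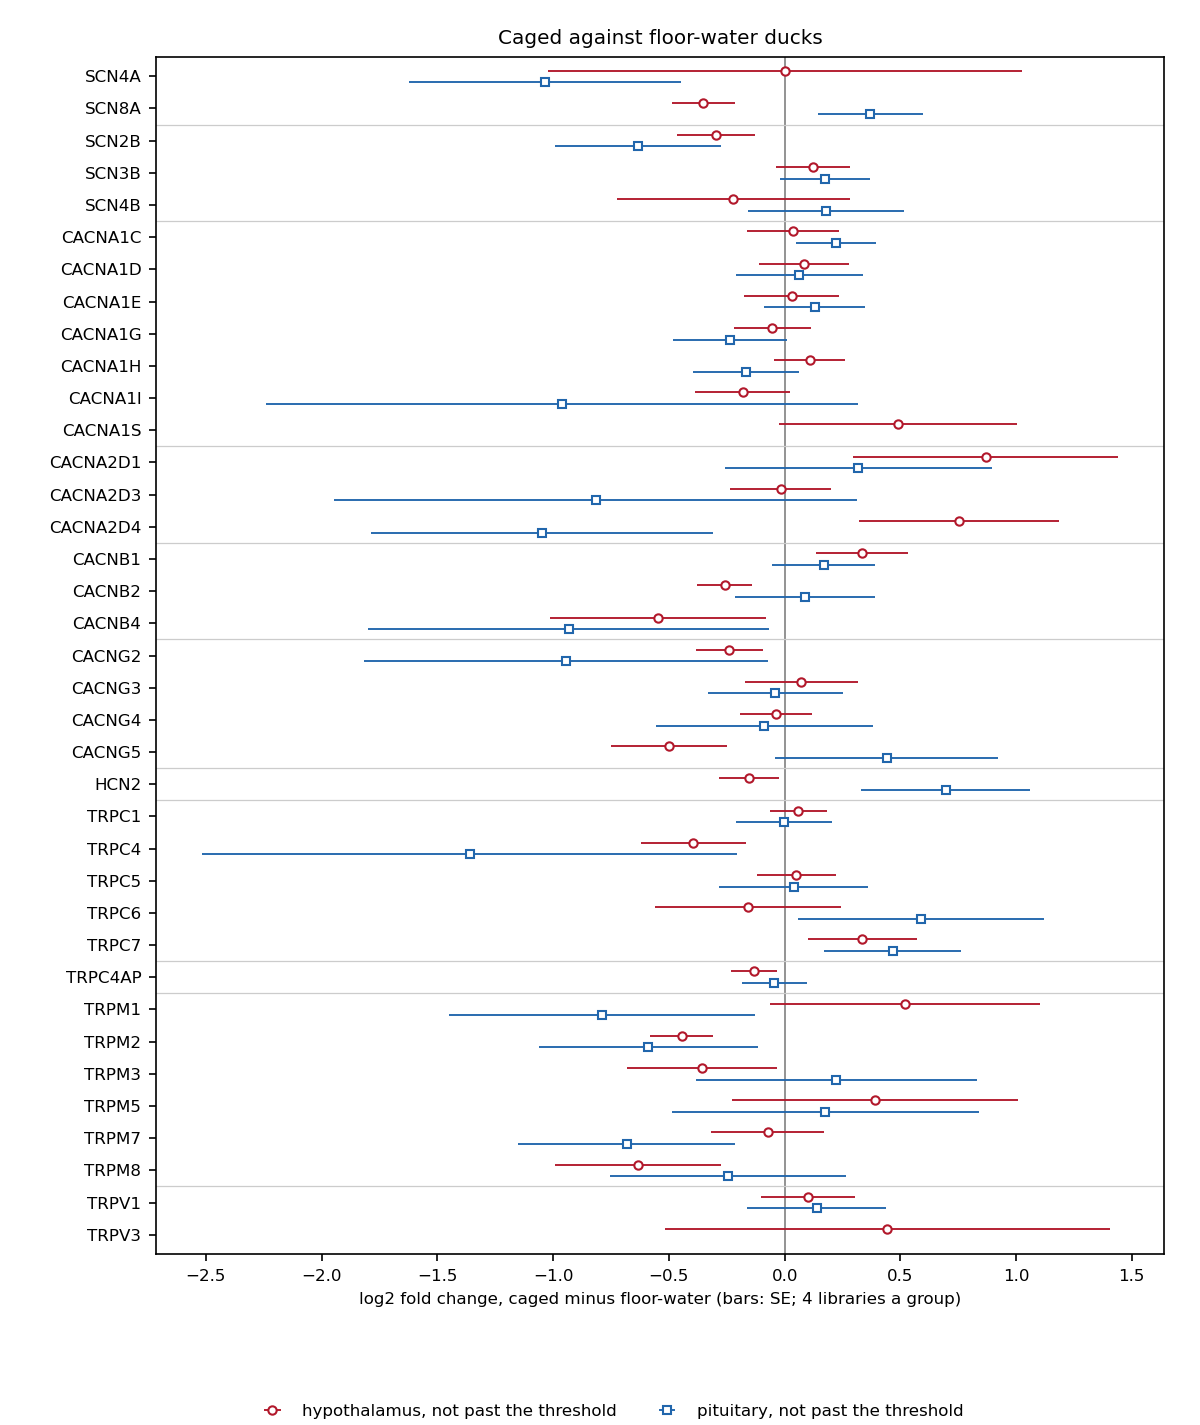
Log2 fold change of caged against floor-water ducks for the tested channel genes drawn, with standard errors, in hypothalamus and in pituitary (4 libraries per group). TRPM2 and SCN8A lie below 0 in hypothalamus with an unadjusted p under 0.05, and no gene passed an adjusted p of 0.05.

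An interaction fitted on the 16 libraries asked whether housing acted differently in hypothalamus and pituitary. It was taken as the caged-against-floor-water difference in pituitary less that in hypothalamus. No member of 39 and no gene of 17010 was called by edgeR (0.0%), and DESeq2 called 0.77% of all genes and no member. At an unadjusted p under 0.05, 1 member was higher and 1 lower, beside 1.85% and 5.36% of all genes. The former was SCN8A, at -0.35 in hypothalamus and 0.37 in pituitary for caged against floor-water ducks, with a difference of 0.71 ± 0.26 (edgeR adjusted p = 0.514). The latter was CACNA1S, whose library counts in pituitary are given above (edgeR adjusted p = 0.436); it was chosen after its values were seen. HCN2 at 0.84 ± 0.41 and CACNG5 at 0.93 ± 0.59 came next by p among members of at least 1 FPKM.

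Partners of these channels were taken from lists that hold regulators, anchoring proteins and release channels. Of 37 partner genes found, 13 of 36 tested were lower and 5 higher in floor-water pituitary, beside 27.8% lower and 28.5% higher among all genes. In caged pituitary 13 of 37 were lower and 5 higher, beside 26.8% and 27.3%. The lower share was not far from that of all genes in either housing, and the higher share was smaller. The lists were unlike, with 6 of 10 sodium and leak channel partners lower in floor-water and 7 of 10 in caged pituitary. Ankyrin-2 (ANK2), which anchors channels to the membrane skeleton, went from 50.2 ± 4.91 and 60.5 ± 11.7 FPKM in hypothalamus to 5.38 ± 1.18 and 4.02 ± 2.40 FPKM in pituitary (-3.67 ± 0.40 and -2.88 ± 0.16). FGF12 and FGF14, intracellular modulators of sodium channels, the axon initial segment anchor ANK3 and the ubiquitin ligase NEDD4L were lower in both housings as well, and none of the 10 sodium and leak channel partners was higher. The ryanodine receptor RYR2, which releases calcium from intracellular stores, fell from 3.22 ± 0.569 and 4.18 ± 0.435 FPKM to 0.0795 ± 0.0722 and 0.141 ± 0.0670 FPKM (-4.69 ± 0.32 and -5.01 ± 0.59, edgeR adjusted p = 7.93e-06 and 0.00019). RYR3 and the active zone proteins RIMS1 and RIMS2 were lower too. REM1, a small G protein that inhibits voltage-gated calcium channels, was higher in pituitary in both housings, at 12.4 ± 3.09 and 5.90 ± 2.96 FPKM against 3.52 ± 0.862 and 2.54 ± 0.511 FPKM (1.38 ± 0.31 and 2.17 ± 0.27, adjusted p = 0.00408 and 0.000245).

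PEX5L, the auxiliary subunit of HCN channels, was lower in pituitary in both housings (-1.56 ± 0.55 and -2.24 ± 0.27, edgeR adjusted p = 0.0361 and 0.000205). Of the other TRP and endolysosomal genes 3 of 6 tested were higher in floor-water pituitary and 2 of 7 in caged pituitary, and 0 were lower. Among all genes 28.5% and 27.3% were higher and 27.8% and 26.8% lower, so that the higher share in caged pituitary was near that of all genes. The mucolipin MCOLN2 rose by a log2 of 4.35 ± 0.88 and 2.61 ± 0.43 and the 2-pore channel TPCN2 by 1.93 ± 0.19 and 1.79 ± 0.39. None of the partners was called between housings in edgeR, with 1 higher and 4 lower in caged hypothalamus and 2 higher and 1 lower in caged pituitary at an unadjusted p under 0.05. In caged pituitary REM1 stood at 1.20 ± 0.32 (edgeR adjusted p = 0.973).

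A further 32 genes were listed by locus number with a channel name in the deposited description. They fall outside the symbol rule and were picked out after the data were seen. In pituitary 12 of 24 tested were lower and 1 higher in floor-water ducks, beside 27.8% and 28.5% of all genes, and 8 of 22 and 1 in caged ducks, beside 26.8% and 27.3%. LOC101802174, described as a type 2 sodium channel alpha subunit, had 12.9 ± 3.67 and 14.7 ± 1.32 FPKM in hypothalamus and 1.17 ± 0.345 and 1.49 ± 0.594 FPKM in pituitary (-3.13 ± 0.22 and -3.13 ± 0.28). LOC113844187, described as type 1-like, went from 14.03 ± 8.89 and 21.3 ± 2.19 FPKM to 0.184 ± 0.296 and 0.393 ± 0.484 FPKM. LOC101796938, which the RefSeq table names HCN4, stood at 6.22 ± 0.472 and 7.93 ± 0.717 FPKM in hypothalamus and 2.52 ± 0.366 and 2.90 ± 0.211 FPKM in pituitary (-1.23 ± 0.13 and -0.96 ± 0.15, edgeR adjusted p = 6.03e-05 and 0.000749). Between caged and floor-water hypothalamus it stood at a log2 fold change without a call (-0.40 ± 0.12, edgeR adjusted p = 0.386). LOC101794161, described as the N-type calcium channel pore, was called in neither housing (-0.20 ± 0.17 and 0.14 ± 0.13), at 4.15 ± 0.114 and 4.57 ± 0.363 FPKM in hypothalamus and 3.60 ± 0.327 and 3.39 ± 0.520 FPKM in pituitary.

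Some members lie close together in the genome. In the order of the deposited genes SCN2B and SCN4B, both lower in pituitary, are separated by 1 gene on the same strand. CACNG4 and CACNG5, also both lower, are separated by 3 genes, and CACNG1 and CACNG4 by 1. TRPV3 and TRPV1 are direct neighbours, CACNA2D3 and CACNA1D have 4 genes between them, and CACNA1C and CACNA2D4 lie on opposite strands with 3 genes between them. CACNA2D3 and CACNA1D had log2 fold changes of -4.96 and -0.38 in floor-water ducks.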

How the data were processed

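Gene-level counts and FPKM values for 16 libraries were used as the authors deposited them. Per the submitters' processing notes, cutadapt, HISAT2, StringTie 1.3.4d and DESeq2 were used; the genome build and strand setting were not stated in them. The authors' deposited tables also list a fold ratio, its log2, its p-value and its q-value, comparing caged with floor-water ducks in each tissue, and these were copied only where named.

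Counts were tested with edgeR 4.0.16 (R 4.3.3): TMM scaling, filterByExpr, quasi-likelihood F-test and Benjamini-Hochberg adjustment over all genes tested, called at an adjusted p under 0.05. Only the groups compared entered each fit; the interaction used all 16 libraries. CPM values are counts scaled to the TMM-adjusted library size. Alternatives were DESeq2 1.42.0, median ratio scaling, no count filter, and limma 3.58.1 on log2(FPKM + 1) and log2(FPKM + 0.1). Further ones were a replicate block, the other-tissue share as a covariate, all libraries in 1 fit and a test against a log2 fold change of 1. Libraries were also left out each in turn, or as a set of 5 where a comparison held them. The set was caged hypothalamus 4, caged pituitary 2 and floor-water pituitary 2 and 4, which had the largest other-tissue shares, and caged hypothalamus 2, high in TTR. The other-tissue share rests on 67 pituitary-restricted and 159 hypothalamus-restricted genes, channel genes left out; each had a mean of at least 20 CPM in its own tissue. The scripts were tested on simulated counts.

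Of the 40 members 37 were tested in every comparison; CACNG1 was tested in none, TRPV3 not in caged against floor-water pituitary or the floor-water tissue comparison, and CACNA1S not in caged against floor-water pituitary, for low counts. Group totals ranged from 38853215 to 67175356 counts per library. Intervals and limits from counts cover counting error only.

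The members, the 9 marker lists and 4 partner lists, and the rules for named genes were chosen with earlier results of these data known. Named genes were the leading member of each family by FPKM, up to 10 members called the same way in both housings with a mean of at least 1 FPKM in 1 tissue and libraries that did not overlap, ranked by size, and, at a mean of at least 1 FPKM, the 5 smallest p-values each way between housings (3 for the interaction). Exceptions are named where they occur. Some members are counted in the totals but their own values are not reported here. No sequences were used here.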

Additional observations from a re-analysis of the deposited data

Results flagged for a closer look

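Of 108 groups of 4 libraries examined over the 27 named genes, 4 had a library far from the other 3 by Dixon's gap, and chance alone gives such a gap in about 1 of 20 groups. CACNA1I stood at 3.63 CPM in caged pituitary library 2, against 0.0763 to 0.549 CPM in the other caged pituitary libraries; that library also held 5.48% of hypothalamus-restricted transcripts. CACNG3 stood at 37.6 CPM in caged pituitary library 3, against 16.3 to 19.1 CPM in the rest of its group, where that library held 0.487%. SCN8A was high in caged hypothalamus library 1, at 210.1 CPM against 160.2 to 168 CPM, and low in floor-water hypothalamus library 2, at 173 CPM against 233 to 243 CPM, so that these libraries are the ones through which the housing groups overlap.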

How the results depend on the processing

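Of members lower in pituitary, 21 in floor-water ducks became 19 to 22 and 22 in caged ducks became 16 to 21 when single libraries were left out. Among the alternatives only the test against a log2 fold change of 1 moved the count by over 1.5 times, to 13 and 12. Among all genes that test took lower calls from 4413 to 2136 in floor-water and from 4248 to 2140 in caged ducks. Higher calls of all genes went from 4522 to 1826 and from 4323 to 1233. The count of members higher in pituitary depended on more settings. In floor-water ducks 3 became 5 with all libraries in 1 fit, 1 against a log2 fold change of 1, and 2 to 4 without single libraries. In caged ducks 5 became 3 with all libraries in 1 fit and 2 without caged hypothalamus libraries 2 and 4 and caged pituitary library 2. The count became 1 in limma with either pseudocount and 0 against a log2 fold change of 1. Without single libraries it was 1 to 4, lowest without caged hypothalamus library 3 or caged pituitary library 1. The cause was not tested. On log2(FPKM + 1) the median of all genes shifted by -0.135 (floor-water) and -0.199 (caged) against counts, and 41.8% and 33.5% of all calls were higher calls there.

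No member was called between housings or in the interaction under leaving out any single library (0 to 0). Sign changes were examined in each comparison for the genes named for it, 10 in each housing or tissue comparison and 3 in the interaction. Among their log2 fold changes 4 values changed sign. CACNA1H in caged against floor-water hypothalamus was -0.24 with the other-tissue share as a covariate. It was -0.039 without caged hypothalamus library 4 (-0.039 to 0.194 over single libraries left out). CACNG2 in caged against floor-water pituitary was 0.13 without the libraries with most transcripts of another tissue and 0.32 with the covariate. None of these was called. The other values of these genes kept direction and side of the threshold. They were 168 in each housing comparison, 69 in the interaction, 170 in the floor-water and 169 in the caged tissue comparison. The 10 genes of the tissue comparisons were picked for calls in both housings, libraries without overlap and large folds. Named genes outside those 10 did gain or lose tissue calls, such as SCN3B, TRPC7 and CACNA1E.

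Libraries that share a number in the labels were not shown to be paired. Correlations of their deviations ran from -0.013 to 0.155 in the hypothalamus and -0.105 to 0.23 in the pituitary. Unlike numbers ran from -0.239 to 0.199 and -0.23 to 0.28 there. Between tissues the same number gave 0.023 to 0.202 in floor-water and 0.091 to 0.191 in caged ducks. Unlike numbers gave -0.151 to 0.0671 and -0.182 to 0.105. In the same order 3, 2, 6 and 7 of 8 libraries correlated best with their own number, a hint from the data and not the design. The main tissue tests took the libraries as unpaired. With the number as a replicate block, 4233 of all 15878 genes tested were lower and 4196 higher in floor-water pituitary. In caged pituitary 4106 of 15854 were lower and 4094 higher. Of the members 22 were lower and 2 higher in floor-water pituitary, 22 and 1 in caged pituitary, and 0 were called between housings. The members behind these counts differed: the block ended the calls of TRPC7 in both housings, of SCN3B in floor-water ducks and of CACNA1E, CACNA1H, CACNA2D1, TRPM1 and TRPM5 in caged ducks, and added CACNB4 in both, CACNA1C in floor-water ducks and SCN3B in caged ducks.

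Precision is limited by 4 libraries per group and by their unequal content of neighbouring tissue. Housing and light regime, and cell number and RNA per cell, cannot be told apart. Members under about 1 CPM (CACNG1, CACNA2D4, TRPM5, TRPM8, TRPV3) rest on few counts. Some members were that low on average in a single tissue, such as SCN4A in hypothalamus (2 to 74 counts per library) and TRPM1 and CACNA1S in caged pituitary. Their tissue calls rest on few counts there. How counting treated reads shared by near-identical family members is not given in the sources used here.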

Other observations

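In some groups of like libraries CACNB4 or CACNA2D1 varied more than the other channel genes of at least 1 FPKM. Among members with a mean of at least 1 FPKM in the group, the median ratio of the highest to the lowest library was 1.54 in caged hypothalamus, 1.41 in floor-water hypothalamus, 1.86 in caged pituitary and 1.79 in floor-water pituitary. CACNB4 spanned 14.6-fold in floor-water pituitary and 13.2-fold in caged pituitary. CACNA2D1 spanned 14.1-fold in floor-water pituitary, where library 2 had 1.95 CPM and the other 3 had 19.99 to 27.6 CPM, and 6.30-fold in caged hypothalamus, where library 2 had 12.3 CPM and the others 66.0 to 77.6 CPM. As wide a span was seen in 1.21% of all genes of that level for CACNB4 in floor-water pituitary and in 1.24% for CACNA2D1 there. In caged pituitary CACNA2D1 spanned only 1.25-fold. Other wide spans were 10.25-fold for CACNG2 and 7.18-fold for TRPC6 in floor-water pituitary and 6.25-fold for TRPM7 in caged pituitary. These genes were picked after their values were seen.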
